A study of Mus musculus with 9 samples.

Results

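The arms of 3 related microRNAs, miR-192, miR-194 and miR-215, were followed across 9 small RNA libraries of mouse subcutaneous adipose tissue. Of the 7 arm names listed for these hairpins, 5 had a row among the 860 mature miRNAs of the deposited files: miR-215-5p, miR-192-5p, miR-194-5p, miR-192-3p and miR-194-2-3p. The other names, miR-215-3p and miR-194-1-3p, are not analysed here. The set was selected on the measured levels of miR-215-5p, which were already known to be higher in both knockout genotypes of these libraries than in WT. For this reason its values against WT are given as a description, and nothing is supported with them.

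The libraries came from individual mice, 3 labelled Homo_KO, 3 labelled Hete_KO and 3 labelled WT. The series title describes the knockouts as lacking Ago1, an Argonaute protein that carries mature miRNAs to their target mRNAs, in endothelial cells, and the WT mice as their littermates. All animals were 24 weeks old. From week 8 of life they had received 16 weeks of a high-fat, high-sucrose diet. The driver of the endothelial deletion is not given in the sources used here, and the files hold miRNAs, so Ago1 itself was not checked. The whole fat pad was profiled, so a higher or lower level cannot be divided into more or fewer cells of a type and more or less RNA per cell.

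miR-192, miR-194 and miR-215 are made from hairpins that sit in neighbouring pairs, so that each pair can be cut from a shared primary transcript. In human cells p53 is known to raise these miRNAs, and miR-192 and miR-215 are known there to hold back cell cycle genes. In the healthy body they are best known as miRNAs of liver, kidney and gut epithelium, where hepatocyte nuclear factors drive them. The mature strand written 5p comes from the first arm of the hairpin and the strand written 3p from the second.

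The mature sequences show which of these miRNAs could share targets and which names report on which locus. They are RefSeq sequences on GRCm38, the assembly that the build name mm10 stands for, and capitals mark the seed, bases 2 to 8, which guides target pairing.
miR-215-5p: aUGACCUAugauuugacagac
miR-192-5p: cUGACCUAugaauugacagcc
miR-194-5p: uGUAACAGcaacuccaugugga
miR-192-3p: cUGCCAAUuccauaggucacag
miR-194-2-3p: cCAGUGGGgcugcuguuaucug
miR-215-5p and miR-192-5p carry the same seed, UGACCUA, and no other mature mouse miRNA of the RefSeq table has it. They are identical at 18 of 21 bases. Counted from 1 at the 5′ end, with the base of miR-192-5p first, they differ by C1A, A12U and C20A, so full-length sequences can be told apart at 3 positions. The counting tool is not named, so how reads were assigned between these names is not known. miR-194-5p has its own seed, GUAACAG, which it shares with no other name in that table.

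The hairpins are shown because the clusters differ in what their arms can tell. Capitals mark both mature arms.
Mir215: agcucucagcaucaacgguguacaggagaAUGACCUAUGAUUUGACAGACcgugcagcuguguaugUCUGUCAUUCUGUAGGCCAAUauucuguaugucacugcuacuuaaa
Mir194-1: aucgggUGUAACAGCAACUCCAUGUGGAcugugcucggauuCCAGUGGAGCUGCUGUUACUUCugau
Mir192: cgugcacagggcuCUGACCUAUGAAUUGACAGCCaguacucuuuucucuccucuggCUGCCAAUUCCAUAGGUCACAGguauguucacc
Mir194-2: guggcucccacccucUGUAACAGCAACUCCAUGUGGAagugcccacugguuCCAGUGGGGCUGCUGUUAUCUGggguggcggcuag
Mir194-1 (chr1:185313319-185313385, plus strand) and Mir215 (chr1:185313581-185313692, plus strand) lie 195 bases apart. In the GENCODE annotation Mir215 overlaps an exon and Mir194-1 an intron of the noncoding gene 2010103J01Rik, and both lie in an intron of Iars2, which is transcribed from the other strand. Mir194-2 (chr19:6264643-6264728, plus strand) and Mir192 (chr19:6264844-6264932, plus strand) lie 115 bases apart and overlap no other annotated gene, with Atg2a as the nearest at 2308 bases from Mir194-2. The sequence of miR-194-5p is identical in Mir194-1 and Mir194-2, so its level is the sum of both clusters. Only miR-215-5p reports on the chromosome 1 cluster alone, while miR-192-5p, miR-192-3p and miR-194-2-3p report on the chromosome 19 cluster alone.

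The deposited values were log2(x + 1) levels that had been quantile-normalized, which gives every library the same ranked set of values, so read depth is unknown and a level is a position in a shared ranking. A trace of depth remained in how many names stood at the bottom value of a library, which was 116, 141 and 102 in Homo_KO, 101, 152 and 105 in Hete_KO and 70, 104 and 63 in WT. The miRNAs taken as adipose tissue markers, miR-193b-3p, miR-365-3p, miR-196a-5p and miR-335-5p, were present in all 9 libraries, with means of 9.07, 12.94, 13.03 and 13.57. Skeletal muscle markers varied most between mice: miR-1a-3p ranged from 11.43 to 16.17 in Homo_KO, from 14.16 to 19.99 in Hete_KO and from 12.09 to 18.99 in WT.

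miR-215-5p, the arm that stands for the chromosome 1 cluster, was higher in every knockout mouse than in any WT mouse. Its level was 5.10, 5.06 and 5.34 in Homo_KO replicates 1, 2 and 3, 5.78, 6.17 and 5.26 in Hete_KO and 3.20, 3.11 and 3.44 in WT. The lowest knockout value exceeded the highest WT value by 1.62, while the values ranged over 0.28 within Homo_KO, 0.91 within Hete_KO and 0.32 within WT. Turned back to a linear scale, the mean level was 35.1 in Homo_KO, 54.0 in Hete_KO and 8.56 in WT.

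In terms of rank, miR-215-5p stood between places 370 and 387 of 860 in Homo_KO, between 303 and 375 in Hete_KO and between 493 and 515 in WT. It was a rare miRNA in all groups. In WT it shared its exact value with 7 to 18 names counting itself, as rare miRNAs with the same small number of reads do, and in the knockouts with 2 to 5. Its WT mean of 3.25 lay under the filter level of 3.46, that is log2(10 + 1), so it entered the test across miRNAs through its knockout values.

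The log2 fold change of miR-215-5p was 1.92 ± 0.28 (SE) for Homo_KO minus WT and 2.49 ± 0.28 for Hete_KO minus WT in a limma fit over all 489 miRNAs that passed the filter. Both comparisons use the same 3 WT mice. In size these were places 10 and 2 among the 489. With Benjamini-Hochberg adjusted p under 0.05 as the call, 1 of the 3 members that passed the filter, miR-215-5p, was called in Homo_KO minus WT, where 3.27% of all miRNAs tested were called, and the same 1 of 3 in Hete_KO minus WT, where 0.409% were. The groups did not overlap for that 1 of 3 in both comparisons, beside 32.7% of all tested miRNAs in Homo_KO minus WT and 17.2% in Hete_KO minus WT. Since miR-215-5p was chosen for this difference, nothing is read from these counts. Its calls were lost when the count of names at the bottom value entered the fit, with log2 fold changes of 1.81 ± 0.38 for Homo_KO and 2.38 ± 0.38 for Hete_KO (SE, limma, adjusted p = 0.118 and 0.0885).

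Whether the knockout genotypes differed from each other was not part of the choice and was tested. The log2 fold change of miR-215-5p for Homo_KO minus Hete_KO was -0.57 ± 0.28 (SE), with a 95% interval from -1.19 to 0.05, and it was not called (limma, Benjamini-Hochberg adjusted p = 0.645, unadjusted p = 0.0688). Homo_KO replicate 3 (5.34) lay above Hete_KO replicate 3 (5.26), so the groups overlapped, as did those of the other 2 members that passed the filter, while 12.3% of all tested miRNAs had no overlap. None of the 489 miRNAs was called in that comparison (0% called), and 41 had an unadjusted limma p under 0.05. The interval leaves room for a level in Homo_KO that is less than that in Hete_KO by more than 1 on the log2 scale and for no difference.

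**Figure D1:**
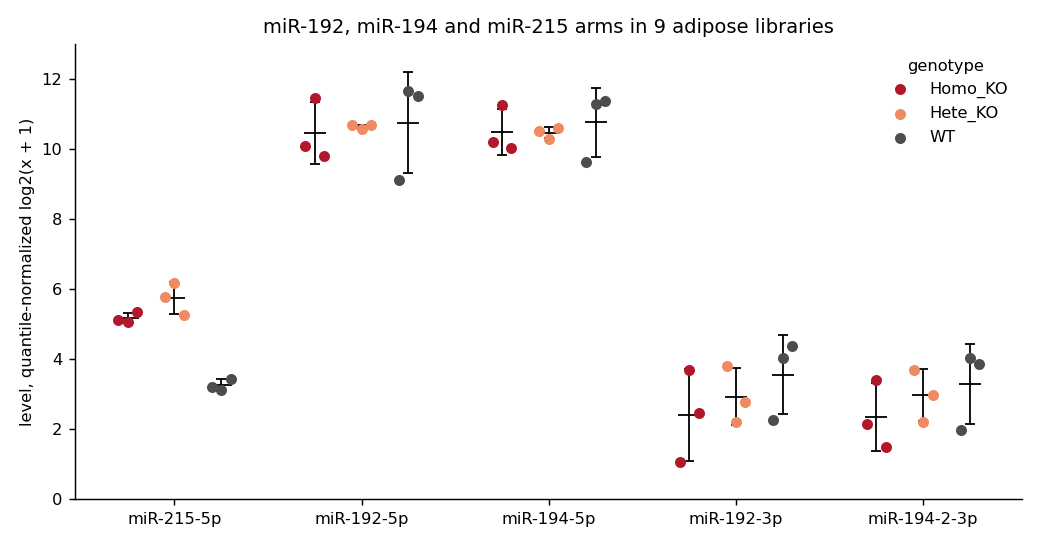
Levels of the 5 arms in each library on the quantile-normalized log2(x + 1) scale, with points for single mice and black bars for the mean ± SD of 3 mice in Homo_KO, Hete_KO and WT. miR-215-5p lies between 5.06 and 6.17 in the 6 knockout mice and between 3.11 and 3.44 in WT, while the other arms overlap between genotypes.

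miR-192-5p, the more abundant arm of Mir192 in the chromosome 19 cluster and the miRNA with the same seed as miR-215-5p, showed no difference between genotypes larger than the spread between mice. Its level was 10.09, 11.47 and 9.80 in Homo_KO, 10.68, 10.58 and 10.68 in Hete_KO and 9.10, 11.66 and 11.51 in WT. WT held both the lowest and the highest value, and the Hete_KO mice lay close together inside that range. The means were 10.45 ± 0.89 in Homo_KO, 10.64 ± 0.05 in Hete_KO and 10.76 ± 1.43 in WT (SD, n = 3 each). The log2 fold change was -0.30 ± 0.65 for Homo_KO minus WT and -0.11 ± 0.65 for Hete_KO minus WT (SE). For Homo_KO minus Hete_KO it was -0.19 ± 0.65, with a 95% interval from -1.65 to 1.27 (limma, adjusted p = 0.981).

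miR-194-5p, which both clusters make, followed miR-192-5p. Its level was 10.19, 11.24 and 10.03 in Homo_KO, 10.52, 10.28 and 10.60 in Hete_KO and 9.62, 11.29 and 11.37 in WT. As with miR-192-5p, WT replicate 1 was the lowest library, and Homo_KO replicate 2 and WT replicates 2 and 3 were the highest. The log2 fold change was -0.27 ± 0.47 for Homo_KO minus WT, -0.29 ± 0.47 for Hete_KO minus WT and 0.02 ± 0.47 for Homo_KO minus Hete_KO (SE), the last with a 95% interval from -1.03 to 1.07 (limma, adjusted p = 0.991). The intervals of these abundant arms are wider than that of miR-215-5p, because the spread within genotypes was 0.98 for miR-192-5p and 0.69 for miR-194-5p but 0.29 for miR-215-5p (pooled SD on the log2 scale).

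The 3p arms that can be placed on chromosome 19 were close to the floor of the data and did not pass the filter. miR-192-3p was at 1.06, 3.68 and 2.47 in Homo_KO, 3.79, 2.21 and 2.78 in Hete_KO and 2.25, 4.03 and 4.36 in WT. miR-194-2-3p was at 2.14, 3.39 and 1.48 in Homo_KO, 3.69, 2.21 and 2.98 in Hete_KO and 1.98, 4.03 and 3.86 in WT. Both arms overlapped between all genotypes, and up to 67 names shared the value of miR-192-3p in a library. At Mir192 the 5p strand was the abundant one, and miR-192-5p exceeded miR-192-3p by 6.85 to 9.02 on the log2 scale in 9 of 9 libraries. miR-194-5p exceeded miR-194-2-3p by 6.83 to 8.55, which is not a strand ratio of Mir194-2, since Mir194-1 adds to miR-194-5p as well.

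**Figure D2:**
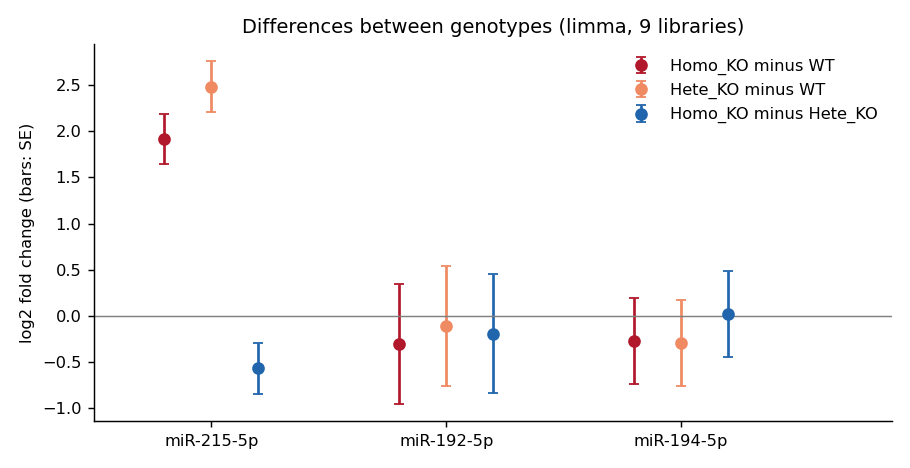
Log2 fold changes of the 3 arms that passed the filter, with bars for the SE of the limma fit over 9 libraries. miR-215-5p stands at 1.92 and 2.49 in the comparisons with WT and at -0.57 between the knockouts, and the values of miR-192-5p and miR-194-5p lie within 1 SE of 0.

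The order of the levels over the 9 libraries was miR-192-5p (mean 10.62), miR-194-5p (10.57), miR-215-5p (4.72), miR-192-3p (2.96) and miR-194-2-3p (2.86). These arms are 21 or 22 bases long, so that length hardly enters the comparison of levels. The 2 pairs of neighbours without miR-215-5p were compared within libraries by exact sign-flip permutation tests, 2-sided and adjusted over both pairs. No difference was detected between miR-192-5p and miR-194-5p, with a mean of 0.05 ± 0.28 (SD, n = 9, adjusted p = 0.644), or between miR-192-3p and miR-194-2-3p (0.10 ± 0.56, adjusted p = 0.644). miR-194-5p exceeded miR-215-5p in 9 of 9 libraries, by 4.11 to 8.18. The difference miR-215-5p minus miR-192-3p, which rests on the values that chose the set and was not tested, was 1.38 to 4.04 in Homo_KO, 1.99 to 3.96 in Hete_KO and -0.93 to 0.95 in WT.

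Set against its seed partner in the same library, miR-215-5p was the minor source of the seed UGACCUA in every mouse. The difference miR-215-5p minus miR-192-5p was -4.99, -6.41 and -4.46 in Homo_KO, -4.89, -4.41 and -5.42 in Hete_KO and -5.90, -8.55 and -8.07 in WT. The mean was -5.29 ± 1.01 in Homo_KO, -4.91 ± 0.50 in Hete_KO and -7.51 ± 1.41 in WT (SD, n = 3 each). This difference also rests on the values of miR-215-5p that chose the set, and it was not tested between genotypes. Hete_KO lay above WT in all 3 mice, whereas Homo_KO replicate 2, where miR-192-5p was high, lay below WT replicate 1, where miR-192-5p was lowest. The 5 arms together held 0.0296% to 0.0795% of the summed linear level in Homo_KO, 0.0427% to 0.0484% in Hete_KO and 0.0202% to 0.0864% in WT.

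Arms of the chromosome 19 cluster were next related to each other and to miR-194-5p from mouse to mouse. miR-192-5p and miR-194-5p varied together over the 9 libraries, with Pearson r = 0.979 and Spearman rho = 0.979 (exact permutation over all pairings, 2-sided, p = 1.65e-05 and 6.61e-05, Benjamini-Hochberg adjusted over 9 relations 4.95e-05 and 0.000198). Without the 2 libraries farthest from the median of miR-192-5p, WT replicates 1 and 2, r was 0.969. Deviations from the genotype means gave r = 0.991. The rare arms of the cluster, miR-192-3p and miR-194-2-3p, had r = 0.854 and rho = 0.833 with each other (exact permutation p = 0.00603 and 0.00827, adjusted 0.0109 and 0.0139), and 0.921 without Homo_KO replicate 1 and WT replicate 3. miR-192-3p with miR-192-5p had r = 0.749 and rho = 0.82 (exact permutation p = 0.021 and 0.00928, adjusted 0.0315 and 0.0139), and 0.779 without WT replicates 1 and 2. miR-194-2-3p with miR-194-5p had r = 0.87 and rho = 0.917 (exact permutation p = 0.0037 and 0.00131, adjusted 0.00833 and 0.00295), and 0.85 without WT replicates 1 and 3. The 3p arms lie near the floor, where up to 67 names share a value of miR-192-3p and up to 42 one of miR-194-2-3p. Their values were identical in Hete_KO replicate 2 and in WT replicate 2. This limits what the relations of the 3p arms can show.

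For miR-215-5p no relation to these arms was detected. Because its WT and knockout values form separate sets, it was related to the other arms within the 6 knockout mice, and whether these relations differ from those over 9 libraries was not tested. There r was -0.06 with miR-192-5p and -0.32 with miR-194-5p (exact permutation p = 0.906 and 0.514, rho -0.32 and -0.37 with p = 0.556 and 0.497). All adjusted p-values of these relations were at least 0.556, and 6 mice leave room for a moderate relation. Without Homo_KO replicates 2 and 3, r was 0.54 with miR-192-5p and -0.04 with miR-194-5p over the 4 mice left. Deviations from the genotype means in the 6 mice gave r = -0.28 with miR-192-5p and -0.43 with miR-194-5p, without a test.

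Both arms of miR-122 and miR-802-5p, which are known from the liver, were among the miRNAs whose pattern was most like that of miR-192-5p and miR-194-5p. For miR-192-5p the 5 highest Pearson r over the 9 libraries, among the 489 miRNAs that passed the filter, belonged to miR-194-5p (0.979), miR-122-3p (0.938), miR-122-5p (0.915), miR-802-5p (0.906) and miR-2137 (0.802). For miR-194-5p they belonged to miR-192-5p, miR-122-3p (0.894), miR-122-5p (0.854), miR-802-5p (0.845) and miR-297a-3p (0.826), listed with the same r as miR-297b-3p and miR-297c-3p because the 3 names have identical values. miR-122 is the most abundant miRNA of hepatocytes, and miR-802 is found in liver, kidney and gut.

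miR-122-5p was at 12.87, 14.52 and 11.71 in Homo_KO, 13.71, 13.43 and 13.84 in Hete_KO and 7.48, 14.84 and 14.99 in WT. Ordered by miR-122-5p, the 9 libraries stood in exactly the order of miR-194-5p (rho = 1, exact permutation p = 5.51e-06, adjusted 4.96e-05). Pearson r was 0.854 (p = 2.76e-06, the smallest that 9 libraries can give, adjusted 2.48e-05), and 0.978 without WT replicate 1 and Homo_KO replicate 3, the libraries farthest from the median. With miR-192-5p, r was 0.915 and rho 0.979 (exact permutation p = 1.65e-05 and 6.61e-05, adjusted 4.95e-05 and 0.000198), and r was 0.98 without the same 2 libraries. Per unit of log2 miR-122-5p, miR-192-5p differed by 0.337 and miR-194-5p by 0.226, so the 2 arms spanned a narrower range than miR-122-5p did.

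miR-802-5p, a rare miRNA here, was at 2.81, 5.36 and 3.77 in Homo_KO, 5.38, 5.26 and 6.02 in Hete_KO and 0.22, 6.73 and 6.56 in WT. WT replicate 1 was thus the lowest library for miR-192-5p, miR-194-5p, miR-122-5p and miR-802-5p alike. The summed linear level of both liver markers ranged from 3399 to 23970 in Homo_KO, from 11240 to 14910 in Hete_KO and from 183.5 to 33030 in WT, and both were above the library's lowest value everywhere. For miR-215-5p no relation to miR-122-5p was detected in the 6 knockout mice, with r = -0.01 and rho = -0.37 (exact permutation p = 0.986 and 0.497, adjusted 0.986 and 0.556), and r = 0.31 without Homo_KO replicates 2 and 3. Their deviations from the genotype means gave r = -0.40, without a test.

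With miR-122-5p as a covariate in the limma fit, the SE of miR-192-5p for Homo_KO minus WT was 0.213 in place of 0.649, and that of miR-194-5p 0.188 in place of 0.466. The log2 fold changes under that covariate were -0.52 for miR-192-5p and -0.42 for miR-194-5p in Homo_KO minus WT, and -0.55 and -0.60 in Hete_KO minus WT, with limma adjusted p between 0.207 and 0.304. miR-215-5p kept 1.92 ± 0.30 and 2.49 ± 0.31 (SE) there.

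**Figure D3:**
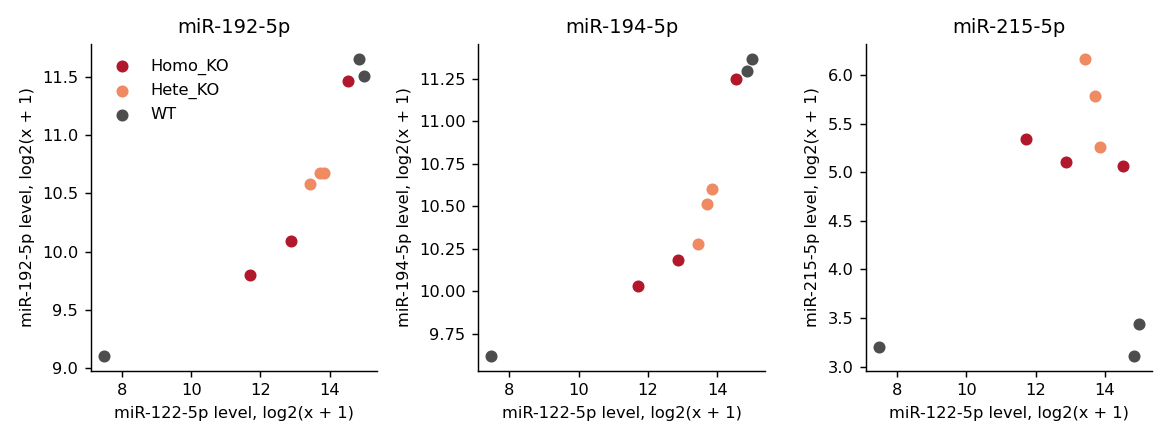
Level of miR-192-5p, miR-194-5p and miR-215-5p against that of liver miR-122-5p in the same library, all on the log2(x + 1) scale, with 1 point per mouse coloured by genotype. The first pair of panels rises from WT replicate 1 (miR-122-5p at 7.48) to WT replicates 2 and 3, while miR-215-5p separates the 6 knockout mice from WT.

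For miR-215-5p the 5 most similar patterns over the 9 libraries were those of miR-30e-5p (r = 0.918), miR-30e-3p (0.899), miR-186-5p (0.865), miR-203-3p (0.859) and miR-129-2-3p (0.857). These are descriptions without a test, since the libraries fall into WT and knockout sets and any miRNA that separates them ranks high. None is an arm of the miR-192 family. miR-203-3p, a miRNA of skin and other epithelia, was at 12.73, 12.87 and 12.92 in Homo_KO, 12.38, 12.92 and 12.92 in Hete_KO and 11.71, 11.79 and 12.16 in WT.

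Summed levels of some cell type markers also separated knockout from WT mice. Such separation is not particular to these markers. Of all tested miRNAs taken singly, 32.7% had no overlap in Homo_KO minus WT and 17.2% in Hete_KO minus WT. The summed linear level of 11 epithelial markers, which is dominated by miR-203-3p, ranged from 7948 to 9163 in Homo_KO, from 8849 to 9309 in Hete_KO and from 4357 to 5818 in WT. None of the 11 was at a library's lowest value. Of the 10 that passed the filter, 1, miR-203-3p, was called in Homo_KO minus WT and 0 in Hete_KO minus WT. Over all tested miRNAs 3.27% and 0.409% were called in these comparisons. On the log2 scale Homo_KO minus WT was -0.65 ± 1.48 (SE) for miR-205-5p and 0.17 ± 0.78 (SE) for miR-429-3p, neither of them called. Of the miRNAs shared by gut and other lining epithelia, miR-200c-3p was at 6.04, 6.38 and 5.94 in Homo_KO, 8.89, 6.22 and 5.74 in Hete_KO and 5.86, 4.83 and 5.76 in WT, and was not called in either knockout (limma, adjusted p = 0.583 for Homo_KO and 0.351 for Hete_KO). miR-141-3p, also reported to respond to p53, was higher in every knockout mouse than in any WT mouse. It was at 5.35, 5.77 and 4.44 in Homo_KO, 7.59, 4.52 and 4.52 in Hete_KO and 2.88, 3.91 and 3.72 in WT. Its log2 fold changes were 1.68 ± 0.77 for Homo_KO and 2.04 ± 0.77 for Hete_KO (SE), and it was not called (limma, adjusted p = 0.218 and 0.239). miR-200b-3p was also apart, at 5.65 to 9.05 in the knockouts and 5.12 to 5.61 in WT. For miR-200a-3p, Homo_KO (6.38 to 6.68) lay above WT (5.61 to 6.23), while Hete_KO overlapped WT. Neither was called in either knockout. Hete_KO replicate 1 was the highest library for miR-200a-3p (9.44), miR-200b-3p (9.05), miR-200c-3p, miR-141-3p and miR-429-3p (7.17). The summed linear level of the endothelial markers miR-126a-3p and miR-126a-5p ranged from 204300 to 224000 in Homo_KO, from 140600 to 219100 in Hete_KO and from 229200 to 301900 in WT, although miR-126a-3p alone overlapped, at 17.58 in Homo_KO replicates 1 and 2, Hete_KO replicate 1 and WT replicate 1, and neither arm was called in either knockout. The summed linear level of 4 leukocyte markers ranged from 19480 to 24860 in Homo_KO, from 12850 to 17980 in Hete_KO and from 14090 to 17550 in WT, so that Homo_KO but not Hete_KO lay apart from WT. Of these 4, miR-142a-5p was called in Homo_KO minus WT (1.26 ± 0.25, SE, limma, adjusted p = 0.0314) and none in Hete_KO minus WT, beside 3.27% and 0.409% of all tested miRNAs. The part of these markers in the level of miR-215-5p was not tested. The number of names at the bottom value was 101 to 152 in the knockout libraries and 63 to 104 in WT. It entered the fit given above, in which the calls of miR-215-5p were lost, and its part was not tested otherwise.

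Of a list of 17 other miRNAs reported to respond to p53, none was called in any comparison. miRNAs outside that list were not considered here. Of all tested miRNAs 3.27% were called in Homo_KO minus WT, 0.409% in Hete_KO minus WT and 0% in Homo_KO minus Hete_KO. At such small shares nothing is read from the absence of calls on this list. Of the 17 on that list, 15 had rows and all 15 passed the filter. The smallest limma adjusted p was 0.21 in Homo_KO minus WT, 0.239 in Hete_KO minus WT and 0.509 in Homo_KO minus Hete_KO. In Homo_KO minus WT, 13 of the 15 were positive with a median log2 fold change of 0.24, against a median of 0.07 and 55.0% positive over all 489. In Hete_KO minus WT, 7 of the 15 were positive with a median of 0.00, against a median of -0.02 and 47.2% positive over all 489. In Homo_KO minus Hete_KO, 13 of the 15 were positive with a median of 0.19, against a median of 0.04 and 56.65% positive over all 489. Several of the 15 are arms of the same hairpin, such as those of miR-34a and miR-143, so they are not independent. One of them, miR-143-3p, stood at the shared maximum of 19.99 in every Homo_KO library. The counts of positive values were not tested, and nothing is read from them.

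The best known p53 target among miRNAs, miR-34a-5p, was at 11.79, 11.74 and 11.92 in Homo_KO, 11.55, 11.63 and 11.63 in Hete_KO and 11.63, 11.57 and 11.55 in WT. The 3 Homo_KO mice were above all others by a small margin, with a log2 fold change of 0.23 ± 0.11 for Homo_KO minus WT and 0.02 ± 0.11 for Hete_KO minus WT (SE, limma, adjusted p = 0.23 and 0.948). Its relative miR-34c-5p was at 7.87, 7.30 and 7.47 in Homo_KO, 6.93, 6.44 and 6.66 in Hete_KO and 7.48, 6.79 and 6.70 in WT. Here the Homo_KO mice lay above all Hete_KO mice and overlapped WT, with 0.56 ± 0.25 for Homo_KO minus WT and 0.87 ± 0.25 for Homo_KO minus Hete_KO (SE, limma, adjusted p = 0.21 and 0.509). Nothing is read from the separation of miR-34a-5p or miR-34c-5p. Of all tested miRNAs, 32.7% had no overlap in Homo_KO minus WT and 12.3% in Homo_KO minus Hete_KO. miR-34c-3p had 0.38 ± 0.70 and -0.23 ± 0.70, miR-34b-5p 0.32 ± 0.36 and -0.42 ± 0.36, and miR-34b-3p 0.64 ± 0.32 and 0.23 ± 0.32, for Homo_KO minus WT and then Hete_KO minus WT (SE).

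**Figure D4:**
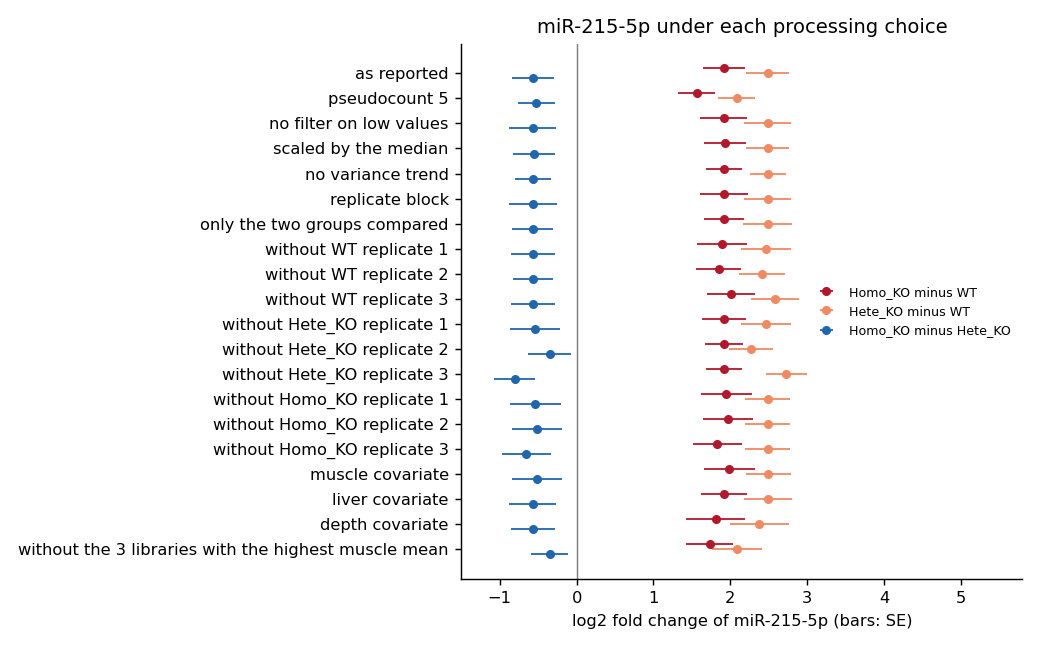
Log2 fold change of miR-215-5p, with bars for the SE, in each comparison as reported and under 19 alternatives of processing. Homo_KO minus WT lies between 1.56 and 2.01, Hete_KO minus WT between 2.08 and 2.73 and Homo_KO minus Hete_KO between -0.81 and -0.35.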

How the data were processed

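Small RNA libraries were made from Trizol-extracted RNA with Illumina's TruSeq small RNA kit, per the labels' protocols, and the genome build was mm10, per the submitters' processing notes. No aligner, counting tool or normalization is named in the sources used here. The deposited files hold log2 values, treated as quantile-normalized log2(x + 1) because every library ends at one shared maximum. They are not FPKM on a linear scale, so no pseudocount was added.

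The filter kept miRNAs with a mean of at least 3.46 that exceeded the bottom value in 3 or more libraries, 489 of 860. Groups followed the genotype labels, and limma 3.58.1 (R 4.3.3) gave the comparisons (variance trend, all 9 libraries, Benjamini-Hochberg over 489, checked on simulated data). Correlations used exact permutations (Python 3.11.15). Sequences came from RefSeq (GRCm38, where 698 of 860 names and all 7 listed members matched) and annotation from GENCODE vM21. The members and lists were chosen with earlier results of these data known. The miRNAs named were every member, the 5 most correlated with each of 3 members, the p53 list and the tissue markers. The relations among 3p arms were added after the values were seen.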

Additional observations from a re-analysis of the deposited data

How the results depend on the processing

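The direction of miR-215-5p was the same under all 19 alternatives in each comparison. miR-215-5p was chosen for its difference from WT and the alternatives reuse the same libraries, so this describes that difference and lends it no support. Its log2 fold change moved by more than the spread between mice with a pseudocount of 5, to 1.56 for Homo_KO minus WT and 2.09 for Hete_KO minus WT, and without the 3 libraries with the highest muscle mean (WT replicates 1 and 2 and Hete_KO replicate 2), to 2.08 for Hete_KO minus WT. In that fit the 1 remaining WT mouse is assumed to vary like the others, and miR-215-5p was called in neither comparison with WT (limma, adjusted p = 0.105 for Homo_KO and 0.0628 for Hete_KO). Its call in Homo_KO also ended without Homo_KO replicate 1 (adjusted p = 0.0504) or Homo_KO replicate 3 (0.0741). With 1 library left out, it ranged from 1.83 to 2.01 for Homo_KO minus WT, from 2.27 to 2.73 for Hete_KO minus WT and from -0.81 to -0.35 for Homo_KO minus Hete_KO. miR-215-5p has no value under the stricter filter (mean of at least 6.66), which it did not pass. miR-192-5p and miR-194-5p were called under none of 20 alternatives and moved by less than the spread between mice, though without 1 library miR-192-5p ranged from -1.13 to 0.15 for Homo_KO minus WT and from -0.94 to 0.34 for Hete_KO minus WT.

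The number of miRNAs called over the whole table depended on the processing. For Homo_KO minus WT it was 16, and 9 with no filter, 25 with the stricter filter, 3 with the muscle covariate, 9 with the liver covariate, 0 with the depth covariate, 8 without the 3 libraries with the highest muscle mean, and 2 to 25 with 1 library left out. For Hete_KO minus WT it was 2, and 10 with the stricter filter, 1 with no variance trend, 1 with only the 2 groups compared, 1 with the liver covariate, 0 with the depth covariate, 10 without the 3 libraries with the highest muscle mean, and 1 to 24 with 1 library left out. For Homo_KO minus Hete_KO it was 0, also with 1 library left out, and 4 without those 3 libraries. The cause was not tested. With the replicate block, 25 and 15 miRNAs were called in Homo_KO and Hete_KO against WT, and the log2 fold changes of the members were as reported. Whether the replicate numbers pair the mice or mark a batch is not given by the labels and is not known. Of 9 pairs of libraries with the same number, 5 had deviations correlated over 0.1 (r from -0.28 to 0.55). Among libraries of the other genotypes, 7 of 9 libraries correlated best with one of their own number. Read depth is unknown, and levels under about 4 are shared by many names, which limits the 3p arms and the WT level of miR-215-5p.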
